A study of Mus musculus with 8 samples.

Results

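The genes described are those of matricellular proteins: the tenascins Tnc, Tnxb and Tnn, periostin (Postn), Sparc, the thrombospondins Thbs1 to Thbs4, and osteopontin (Spp1). They were taken as the probe sets that list exactly 1 gene symbol, with 1 probe set per gene, the one with the highest mean over all tumors. Of the 10 genes 9 had such a probe set, out of 19937 named genes in all. Spp1 was not analysed here, because the platform annotation used names no probe set for it. Each of the 9 had a single probe set of its own, and all 9 passed the limit on low values, a mean of at least 4.

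The tumors grew from 4T1 cells, an established mouse mammary carcinoma line, placed in the fourth mammary gland of BALB/c mice. In 4 tumors, called preirradiated, the gland had received a single local X-ray dose of 20 Gy before the cells were placed, and in the other 4, called nonirradiated, it had not. All 8 tumors carried the same cells in the same strain and had grown for 18 days; the labels give neither the age of the mice nor how many mice bore the tumors. RNA of whole tumor tissue was hybridised to Affymetrix arrays of the type Mouse Gene 1.0 ST, 1 per tumor, and the number of arrays limits the precision of every value below. Values are the authors' log2 signals from RMA (robust multi-array average), and p-values measure the spread between these tumors, which may in part be technical.

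The arrays were alike in overall level, with medians over all probe sets from 5.937 to 5.996. The labelled tissue, a mammary epithelial carcinoma, had high signals of the epithelial keratins in every tumor, with Krt8 from 12.45 to 12.63 and Krt18 from 11.80 to 12.03. Preirradiated tumors 1 and 3 stood apart in adult skeletal muscle transcripts: the mean of 12 such genes was 8.95 and 10.48 in them, against 6.12 and 6.26 in the remaining preirradiated pair and 6.04 to 6.34 in the nonirradiated tumors. Preirradiated tumor 1 also had the highest mean of 9 adipocyte genes, 8.25, against at most 6.96 in any other tumor. The main results that these tumors touch are given with and without them.

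Matricellular proteins are secreted into the extracellular matrix but serve less as its scaffold than as signals: they bind collagens, fibronectin, growth factors and cell surface receptors, and change how cells adhere, move and assemble matrix. Most are scarce in resting adult tissue and appear in wounds, in bone and tendon, and in the stroma of tumors, where fibroblasts and myofibroblasts are a main source. Tenascins are built of EGF-like repeats, fibronectin type III repeats and a fibrinogen-like globe. Thrombospondins fall into a trimeric subgroup, Thbs1 and Thbs2, whose properdin-like repeats bind CD36, and a pentameric subgroup that lacks those repeats, to which Thbs3 and Thbs4 belong.

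Tnc, Thbs2 and Tnn were higher in preirradiated tumors and passed the study's own filter, which asks for an unadjusted p of at most 0.05, a log2 change of at least 0.4 and a mean of at least 4. That is 3 of 9 genes, where 0.346% of all named genes passed this filter as higher and 0.14% as lower. Over all named genes that was 69 higher and 28 lower, or 51 higher and 36 lower when each array was set to a common median, where Tnc and Thbs2 but not Tnn passed. None of the 9 was called as lower. After Benjamini-Hochberg adjustment of the limma p-values, 0 of 34738 probe sets (0%) stood below 0.05. At an unadjusted p under 0.05, 4 of the 9 genes were higher and 0 lower, against 2.39% and 3.27% of all named genes. For Tnc, Thbs2, Postn and Tnn the 2 groups did not overlap, with every preirradiated value the higher, against 1.7% of all named genes higher without overlap and 1.95% lower. On average 8 of the 9 were higher, all but Thbs1, against 47.4% of all named genes. The median log2 difference of the 9 genes was 0.41, and over all named genes it was -0.0038.

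The stretches of the genome in front of these 3 genes are shown first, 250 bases before an annotated start of transcription (RefSeq, GRCm38.p6), to let the sequence be read beside the values. Each lies on the minus strand and is written 5′ to 3′ along the gene. Capitals mark the letters of 6 motifs searched on both strands, where neighbouring matches may share letters: TATAA (the TATA core), CAGACA (a SMAD site), TGANTCA (AP-1), CATTCC (TEAD), GGGCGG (Sp1) and the CArG box (serum response factor). The Tnc window, chr4:64046937-64047186, belongs to the more downstream of 2 annotated starts. The Thbs2 window is chr17:14694263-14694512 and the Tnn window chr1:160153576-160153825.
Tnc: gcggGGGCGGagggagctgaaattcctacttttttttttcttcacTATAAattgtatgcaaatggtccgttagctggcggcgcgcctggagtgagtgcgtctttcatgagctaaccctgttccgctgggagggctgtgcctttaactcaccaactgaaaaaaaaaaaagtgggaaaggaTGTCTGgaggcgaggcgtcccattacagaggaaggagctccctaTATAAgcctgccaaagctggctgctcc
Thbs2: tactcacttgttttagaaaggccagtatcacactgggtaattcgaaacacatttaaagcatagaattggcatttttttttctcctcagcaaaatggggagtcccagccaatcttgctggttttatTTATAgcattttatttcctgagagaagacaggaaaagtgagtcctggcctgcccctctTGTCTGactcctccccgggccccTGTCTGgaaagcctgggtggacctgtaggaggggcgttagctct
Tnn: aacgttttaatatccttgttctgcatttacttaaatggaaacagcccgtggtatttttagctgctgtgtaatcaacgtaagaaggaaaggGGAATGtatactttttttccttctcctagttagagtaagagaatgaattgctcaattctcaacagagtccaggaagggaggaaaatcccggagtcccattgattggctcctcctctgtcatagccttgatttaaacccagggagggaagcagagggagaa

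In the Tnc window shown, TATAA stood 27 to 23 bases before the start and again 205 to 201 bases before it. CAGACA lay on the opposite strand at 71 to 66 and GGGCGG at 246 to 241. The window of the other annotated Tnc start, chr4:64047016-64047265, held TATAA at 126 to 122, GGGCGG at 167 to 162 and no CAGACA. Thbs2 held CAGACA on the opposite strand at 44 to 39 and at 67 to 62, and TATAA on the opposite strand at 125 to 121. The Tnn window held 1 match, CATTCC on the opposite strand at 160 to 155. These letters are common: of 32851 such windows 22.8% held TATAA, 17.1% CAGACA, 12.6% CATTCC, 32.7% GGGCGG, 6.75% TGANTCA and 1.47% a CArG box. Windows were at hand for 9 of the 10 genes, all but Thbs1. Sparc, which differed little between the groups, held CAGACA on the opposite strand at 36 to 31, and none of the 12 windows of these genes held a CArG box.

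Tenascin C, the family member best known from wounds and tumor stroma, gave the clearest difference. Tnc (probe set 10513739) was 10.97, 10.78, 11.04 and 11.02 in nonirradiated tumors 1 to 4 and 11.74, 11.67, 11.53 and 11.40 in preirradiated tumors 1 to 4. The lowest preirradiated tumor stood 0.35 above the highest nonirradiated one. The means were 10.95 ± 0.12 and 11.58 ± 0.15 (SD, n = 4 each), a log2 difference of 0.63 (SE 0.087, 95% confidence interval 0.43 to 0.83) or 1.55-fold (limma adjusted p = 0.595). By its unadjusted p of 7.48e-05 it ranked as number 3 among the 19937 named genes. The difference was 0.58 without preirradiated tumors 1 and 3, and Tnc passed the study's filter in all 18 alternative settings, with differences from 0.57 to 0.69.

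Tnn encodes tenascin W, found in developing bone and in the stroma of mouse mammary tumors. Its signals were 5.91, 5.96, 5.71 and 6.03 in the nonirradiated tumors and 6.04, 6.53, 6.47 and 6.20 in the preirradiated tumors, in the order of their numbers. The groups touched: preirradiated tumor 1 and nonirradiated tumor 4 were 6.04 and 6.03. The log2 difference was 0.41 (SE 0.12, 1.32-fold, limma adjusted p = 0.763), just past the limit of the study's filter. Tnn missed that limit in 5 of 18 alternative settings, at 0.33 without preirradiated tumor 2, 0.34 without nonirradiated tumor 3, 0.35 without preirradiated tumor 3 and 0.37 with each of the other scalings of the arrays. Without both preirradiated tumors 1 and 3 it was 0.46.

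Tenascin X, encoded by Tnxb, is a protein of dermis, tendon sheath and the connective tissue of muscle that organises collagen fibrils. Tnxb was 5.38, 5.69, 5.96 and 5.75 in the nonirradiated and 6.74, 5.77, 6.23 and 5.88 in the preirradiated tumors. Tumors 1 and 3 of the preirradiated group lay above the nonirradiated range and tumors 2 and 4 within it. The log2 difference of 0.46 (SE 0.22, limma adjusted p = 0.863) was 0.26 when preirradiated tumor 1 was left out and 0.13 when both tumors high in muscle transcripts were; it was 0.20 with the mean of the muscle genes as a covariate. Conversely, Tnxb passed the study's filter at 0.59 without preirradiated tumor 2, 0.55 without preirradiated tumor 4, 0.55 without nonirradiated tumor 3 and 0.48 with array weights. The part of muscle-associated tissue in the Tnxb signal was not tested further. In bulk tissue, for every gene of this report, Tnc and Tnn included, more cells of a type and more RNA per cell cannot be told apart.

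**Figure D1:**
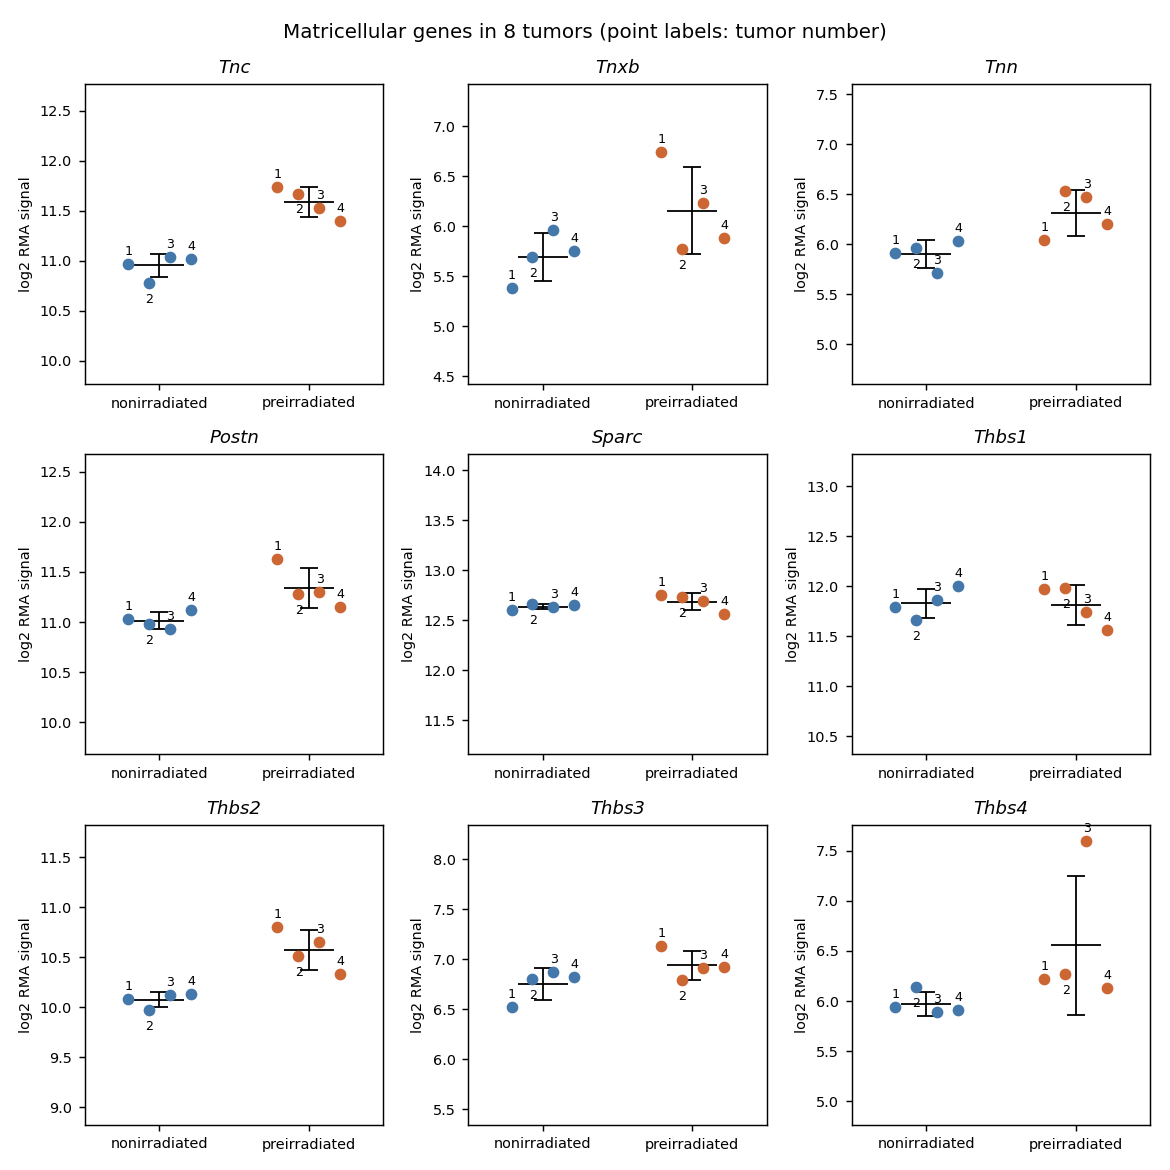
Log2 RMA signal of 9 matricellular genes (panels) in 4 nonirradiated and 4 preirradiated tumors; each point is 1 tumor with its number, the wide bar is the group mean, the whiskers are the SD, and every panel spans 3.0 log2 units. Tnc and Thbs2 show a clear gap between the groups, Tnn and Postn a narrow one, and Thbs4 has 1 high tumor, preirradiated tumor 3 at 7.60.

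Among the thrombospondins, Thbs2 was higher in preirradiated tumors and Thbs1 was not. Thbs2, which restrains vessel growth and is needed for regular collagen fibrils in mouse skin, was 10.08, 9.97, 10.12 and 10.13 in the nonirradiated tumors. The preirradiated tumors had 10.80, 10.51, 10.65 and 10.33, all above the nonirradiated range. The means were 10.08 ± 0.07 and 10.57 ± 0.20 (SD, n = 4 each), a log2 difference of 0.50 (SE 0.096, 95% confidence interval 0.28 to 0.72) or 1.41-fold (limma adjusted p = 0.62). Without preirradiated tumors 1 and 3 the difference was 0.34 (limma unadjusted p = 0.00344), and with the muscle genes as a covariate it was 0.37, both under the size limit of the study's filter.

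Thbs1, the platelet and stromal form that can activate latent TGF-beta, was 11.79, 11.66, 11.86 and 12.00 in the nonirradiated and 11.97, 11.98, 11.74 and 11.56 in the preirradiated tumors. The groups overlapped throughout, and the log2 difference was -0.02 (95% confidence interval -0.26 to 0.23, limma adjusted p = 0.998). Its sign turned with a further quantile normalization (0.019) and when nonirradiated tumor 4 (0.041), preirradiated tumor 3 (0.0072) or preirradiated tumor 4 (0.068) was left out. The upper end of the interval lies below the 0.50 estimated for Thbs2.

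The difference between the 2 trimeric thrombospondins was tested within tumors. The log2 signal of Thbs2 minus that of Thbs1 was -1.71, -1.69, -1.74 and -1.87 in the nonirradiated and -1.17, -1.47, -1.10 and -1.23 in the preirradiated tumors. This within-tumor value was higher in 4 of 4 preirradiated tumors, by 0.51 (exact two-sided permutation p = 0.0286, the smallest that 8 tumors allow). Of 5 such pairs tested it was 1 of 2 at that p, and after Benjamini-Hochberg adjustment over the 5 pairs the p was 0.0714. Without preirradiated tumors 1 and 3 the change was 0.40. Because probe sets differ in their response, only the change of this value between groups is read, not its level.

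Thbs3 and Thbs4, the pentameric forms, differed less clearly. Thbs3, studied in mouse skeletal growth, was 6.52, 6.80, 6.87 and 6.82 in the nonirradiated and 7.13, 6.79, 6.91 and 6.92 in the preirradiated tumors, with a log2 difference of 0.18 (SE 0.095, limma adjusted p = 0.874). Preirradiated tumor 2 lay within the nonirradiated range, the other 3 just above it. The difference was 0.11 without nonirradiated tumor 1, 0.12 without preirradiated tumor 1 and 0.10 without both tumors 1 and 3, but 0.23 (limma unadjusted p = 0.0461) without preirradiated tumor 2.

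Thbs4, a protein of tendon and of muscle attachments, was 5.94, 6.14, 5.89 and 5.91 in the nonirradiated tumors and 6.22, 6.27, 7.60 and 6.13 in the preirradiated tumors. Preirradiated tumors 1, 2 and 3 lay above the nonirradiated range. The mean Thbs4 difference of 0.59 (SE 0.30, limma unadjusted p = 0.0878, adjusted p = 0.874) came mostly from preirradiated tumor 3, the tumor with the highest muscle mean. It was 0.24 (limma unadjusted p = 0.0119) without that tumor. Without preirradiated tumors 1 and 3 it was 0.23 (limma unadjusted p = 0.0362), in both cases under the size limit of the study's filter. With the muscle genes as a covariate it was 0.12. The mean of 5 tendon markers was 6.56 in preirradiated tumor 3 and 6.33 to 6.49 in the others. Tnmd, a marker of tendon cells, stayed between 5.30 and 5.42 in all 8 tumors. Its mean of 5.36 was low, at percentile 28.7 of all named genes, where a change is hard to see. Fmod, a collagen-binding proteoglycan on the same list, was 7.03 in preirradiated tumor 3 and 6.17 to 6.73 elsewhere. The part of muscle or tendon tissue in the Thbs4 signal was not tested further. Thbs4 minus Thbs3 within tumors differed by 0.40 between the groups (exact two-sided permutation p = 0.371; adjusted over the 5 pairs, 0.464), and by 0.045 with preirradiated tumor 3 left out.

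Periostin was higher in preirradiated tumors by less than the study's limit, and Sparc hardly differed. Periostin binds collagen and BMP1 and promotes collagen crosslinking. Postn was 11.03, 10.98, 10.93 and 11.12 in the nonirradiated and 11.63, 11.28, 11.30 and 11.15 in the preirradiated tumors. The groups did not overlap, although preirradiated tumor 4 was only 0.03 above nonirradiated tumor 4. The log2 difference was 0.32 (SE 0.099, 1.25-fold, limma adjusted p = 0.773), and 0.20 without preirradiated tumors 1 and 3.

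Sparc, a calcium-binding protein that binds collagen and loosens cell adhesion, was 12.60, 12.66, 12.63 and 12.65 in the nonirradiated and 12.75, 12.73, 12.69 and 12.56 in the preirradiated tumors. Its log2 difference was 0.05 (95% confidence interval -0.06 to 0.16, limma adjusted p = 0.958). It was 0.090 (limma unadjusted p = 0.0433) without preirradiated tumor 4 and 0.012 without preirradiated tumors 1 and 3. Within tumors, Postn minus Sparc was higher in 4 of 4 preirradiated tumors, by 0.27 (exact two-sided permutation p = 0.0286, the smallest possible, and 0.0714 adjusted over the 5 pairs). Without preirradiated tumors 1 and 3 that change was 0.19.

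The change of Tnc was not separated from that of either other tenascin, and Tnxb against Tnn was not tested. Tnc minus Tnxb changed by 0.17 between the groups (exact two-sided permutation p = 0.514) and Tnc minus Tnn by 0.22 (p = 0.257 in the same exact test), with adjusted p over the 5 pairs of 0.514 and 0.429. The first value ran from 0.0125 without preirradiated tumor 2 to 0.32 without preirradiated tumor 1, and the second was 0.084 without preirradiated tumor 1. Without both preirradiated tumors 1 and 3 they were 0.45 and 0.12. In both pairs 1 of 4 preirradiated tumors lay above all nonirradiated tumors.

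**Figure D2:**
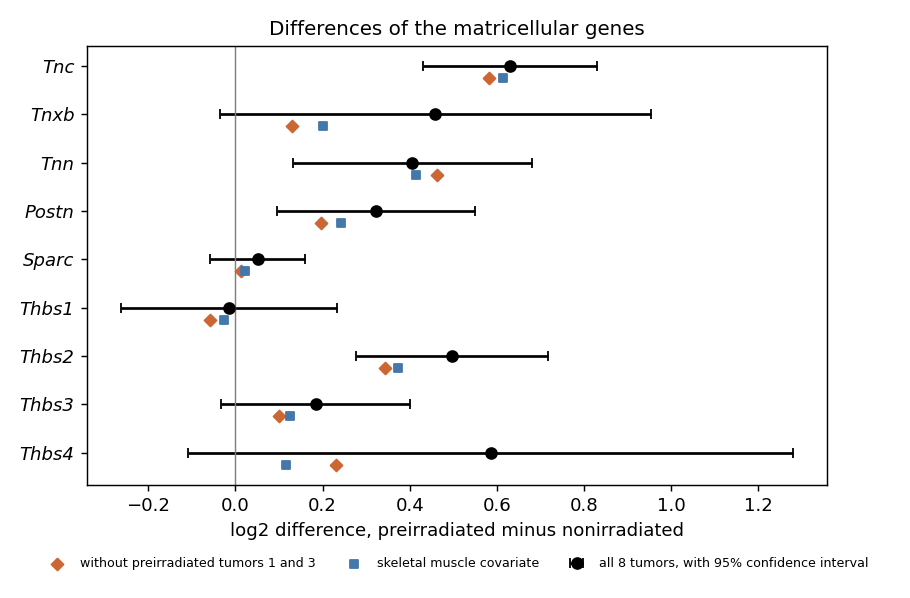
Log2 difference (preirradiated minus nonirradiated tumors) of each of 9 matricellular genes; black circles are the fit on all 8 tumors with its 95% confidence interval, diamonds the fit without preirradiated tumors 1 and 3, and squares the fit with the mean of skeletal muscle genes as a covariate. Tnc stays near 0.6 in all 3 fits (0.58 to 0.63), while Thbs4 goes from 0.59 to 0.12 with the covariate and Tnxb from 0.46 to 0.13 without the 2 tumors.

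Within the preirradiated group the tumors fell in a similar order for many of these genes. Preirradiated tumor 1 was the highest of its group for 6 of 9 genes (Tnc, Tnxb, Postn, Sparc, Thbs2 and Thbs3) and preirradiated tumor 4 the lowest for 6 (Tnc, Postn, Sparc, Thbs1, Thbs2 and Thbs4). In tumors 1 and 3, 8 of 9 genes lay above every nonirradiated tumor, in tumor 2 there were 6 and in tumor 4 there were 5. Some of these margins were small, as for Sparc in tumor 3, at 12.69 against at most 12.66. The shares over all named genes were not counted for these orders, so they describe the tumors only. The spread within the preirradiated group was the larger one for 8 of the 9 genes, against 54.9% of all named genes. Thbs3 was the exception.

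Markers of other cell types were set beside these values. The mean of 9 fibroblast markers was 9.66 and 9.68 in preirradiated tumors 1 and 3, against 9.28 and 9.37 in tumors 2 and 4 and 8.95 to 9.28 without irradiation. Of the 9 markers 8 were higher in preirradiated tumors and 4 passed the study's filter, against 47.4% and 0.346% of all named genes. Pdgfra, a receptor that marks fibroblasts, was 9.79 ± 0.08 in preirradiated against 9.90 ± 0.14 in nonirradiated tumors (n = 4 each) and did not pass. The list shares Col1a1, Col1a2, Col3a1 and Dcn with the matrix partners described below, and of the 4 that passed only Pdpn is not one of these collagens. Of 8 smooth muscle and pericyte markers 7 were higher and 2 passed, against the same shares. Among them Acta2, Tagln, Myh11 and Cnn1 were higher without overlap, 4 of 8 against 1.7% of all named genes. The list means were 8.12 to 8.51 in preirradiated and 8.03 to 8.11 in nonirradiated tumors. Of 7 endothelial markers, which bear on the antiangiogenic Thbs2, 7 were higher and 0 passed (list means 8.44 to 8.74 against 8.31 to 8.52). Tek and Vwf were higher without overlap, 2 of 7 against 1.7% of all named genes. All 9 macrophage markers were lower and 0 passed (list means 10.85 to 10.91 against 10.88 to 11.07). At an unadjusted limma p under 0.05, 3 of the 9 were lower, against 3.27% of all named genes. Cd68 was lower without overlap, although the groups touched at 10.92, against 1.95% of all named genes. All 7 tumor epithelial markers were higher and 0 passed. Krt7 was higher without overlap, 1 of 7, by 0.39 (limma unadjusted p = 0.00118), just under the size limit of the filter. Platelet markers, which bear on Thbs1, had list means of 6.54 to 6.78 against 6.60 to 6.87. Within the preirradiated group the smooth muscle, epithelial and macrophage list means did not follow the order of the fibroblast means. In preirradiated tumors 1 to 4 the smooth muscle means were 8.51, 8.36, 8.24 and 8.12. The endothelial means were 8.74, 8.61, 8.55 and 8.44. Both fell in the same tumor order as Tnc, which the fibroblast means did not. Thbs2 and Postn followed neither list, with preirradiated tumor 3 above tumor 2. These are 2 of 12 marker lists, their order was compared after the values were seen, and an order of 4 tumors can match by chance. Among nonirradiated tumors neither the smooth muscle nor the endothelial means followed the order of Tnc. The part of cell composition in the matricellular differences was not tested beyond these values.

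**Figure D3:**
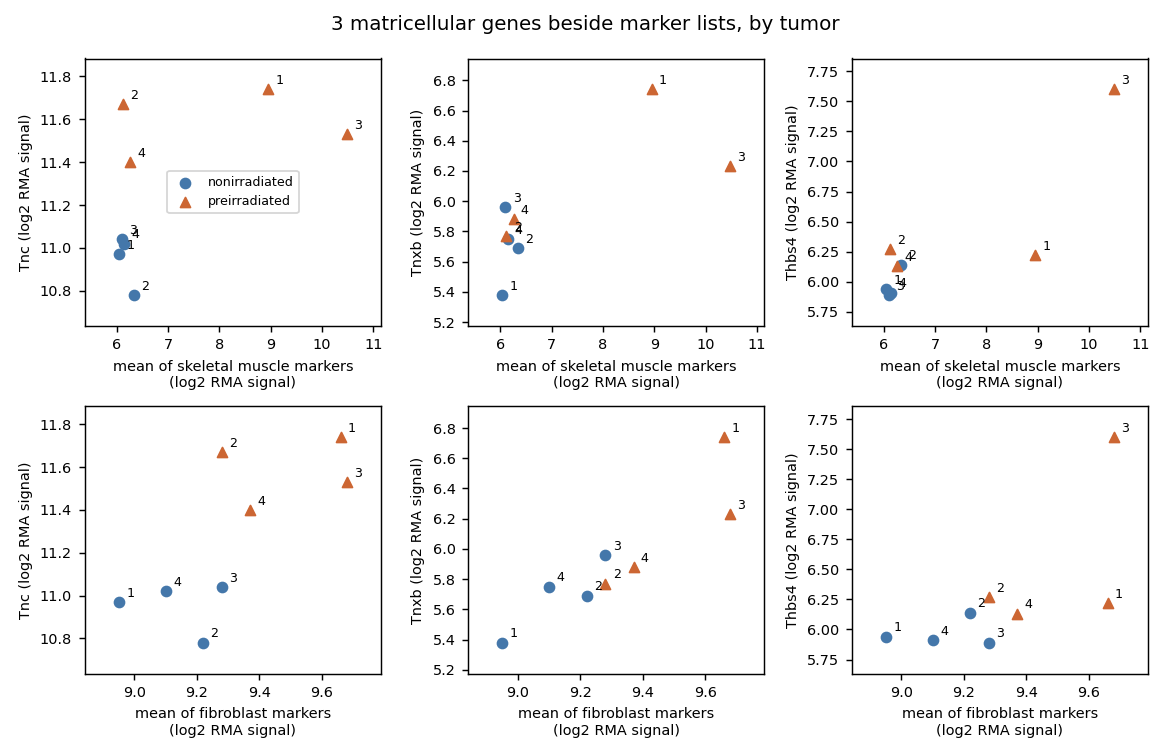
Log2 RMA signal of Tnc, Tnxb and Thbs4 (columns, vertical axes) against the mean log2 signal of skeletal muscle markers (upper row) and fibroblast markers (lower row); each point is 1 numbered tumor, circles nonirradiated and triangles preirradiated. Thbs4 is highest in preirradiated tumor 3, at 7.60, and Tnxb in preirradiated tumor 1, at 6.74. Tnc is at least 11.40 in all 4 preirradiated tumors, the muscle-rich and the others.

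The genes around the matricellular proteins were then described from lists of matrix partners, receptors, regulators and relatives. Of 11 matrix proteins that bind them or are processed with them, all 11 were higher on average and 7 passed the study's filter. Of all named genes 47.4% were higher and 0.346% passed as higher. The median log2 difference of the list was 0.49. It shares collagens with the fibroblast markers and was chosen with earlier results of these data known, so its count is not a separate finding. Col5a2, a chain of collagen V, which starts the assembly of collagen I fibrils, differed by 0.55 (SE 0.074) and the collagen I chain Col1a2 by 0.54 (SE 0.094). Lox, the lysyl oxidase whose activation periostin aids, differed by 0.80 (SE 0.23) and Vcan, a hyaluronan-binding proteoglycan, by 0.68 (SE 0.16). Groups overlapped for Lox and not for the other 3. Lox missed the filter without preirradiated tumors 1 and 3 (0.54) and with the muscle covariate (0.57). Vcan stayed past it in these settings, at 0.42 and 0.45. Without preirradiated tumors 1 and 3 Col5a2 differed by 0.49 and Col1a2 by 0.44.

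Receptors of matricellular proteins showed no such shift as a list: 11 of 19 were higher on average, 0 passed the study's filter, and the median log2 difference was 0.02. At an unadjusted limma p under 0.05, 3 of 19 were higher and 2 lower, against 2.39% and 3.27% of all named genes. Without overlap between the groups 3 were higher and 1 lower, against 1.7% and 1.95%. Itga5, the fibronectin receptor subunit, was 9.41, 9.36, 9.64 and 9.70 in the nonirradiated and 10.07, 9.80, 9.85 and 9.71 in the preirradiated tumors. This was a difference of 0.33 (SE 0.10) without overlap, or 0.23 without preirradiated tumors 1 and 3 and 0.26 with the muscle covariate. Itga9, a subunit of a tenascin C receptor, was 8.93, 8.87, 8.91 and 8.94 against 8.83, 8.83, 8.59 and 8.67, a difference of -0.19 (SE 0.061), also without overlap. Itga8, another tenascin C and osteopontin receptor subunit, differed by -0.33 through nonirradiated tumor 1 alone, at 7.31; without it the difference was 0.053. Cacna2d1, a calcium channel subunit that binds thrombospondins, differed by 0.33 and followed the muscle tumors, at 5.52 in preirradiated tumor 1 and 6.10 in preirradiated tumor 3, and no higher than 5.24 elsewhere. It differed by 0.13 without preirradiated tumor 3, by 0.0071 without tumors 1 and 3, and by -0.0305 with the muscle covariate.

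Among 13 measured regulators 5 were higher and 8 lower on average, with a median log2 difference of -0.02. As higher 1 passed the study's filter, against 0.346% of all named genes. The gene that passed was Prrx1, a homeobox factor of mesenchymal cells known to induce tenascin C in mouse fibroblasts. Prrx1 was 7.91, 7.97, 8.06 and 8.05 in the nonirradiated and 8.71, 8.40, 8.81 and 8.29 in the preirradiated tumors. The groups did not overlap, and the log2 difference was 0.55 (SE 0.11), or 0.35 without preirradiated tumors 1 and 3 and 0.35 with the muscle covariate, both under the size limit of the filter. Smad7, an inhibitor that TGF-beta signalling induces, differed by 0.14 (SE 0.050) and did not pass. The other listed regulators, the TGF-beta ligands among them, did not pass.

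Of 15 further matricellular relatives 11 were higher on average, 0 passed the study's filter, and the median log2 difference was 0.06. Ibsp, bone sialoprotein of the same family as osteopontin, was 8.40, 8.63, 8.99 and 8.97 in the nonirradiated and 9.03, 9.01, 8.82 and 9.76 in the preirradiated tumors. It was highest in preirradiated tumor 4, and its difference was 0.41 (SE 0.22). Ibsp passed the study's filter at 0.64 (limma unadjusted p = 0.0432) without preirradiated tumors 1 and 3. With the muscle covariate it passed at 0.63 (limma unadjusted p = 0.0302). The difference was 0.21 without preirradiated tumor 4 and 0.24 with array weights, and neither passed. Tenascin R (Tnr), the form of the nervous system, differed by -0.26 (SE 0.19) and Smoc2, a Sparc relative, by 0.13 (SE 0.089), with overlapping groups in both. Tnr differed by -0.10 without nonirradiated tumor 4 and by -0.17 without preirradiated tumor 4, and Smoc2 by 0.037 without preirradiated tumor 3.

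**Figure D4:**
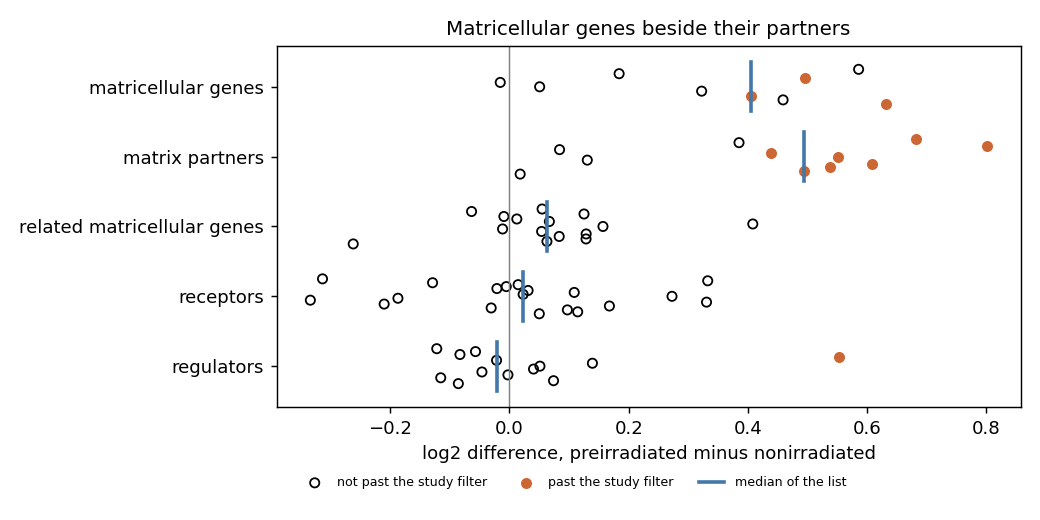
Log2 difference (preirradiated minus nonirradiated tumors, horizontal axis) of each gene in 5 lists; filled points passed the study's filter, open points did not, and the vertical bars are list medians. Matricellular genes and matrix partners lie mostly to the right (medians 0.41 and 0.49), and receptors, regulators and other relatives scatter around 0 (medians 0.02, -0.02 and 0.06).

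The genes most alike in pattern were found by the root mean square difference between profiles centred on their own mean over all 8 tumors, among 11455 other named genes with a mean of at least 6. For Tnc, whose own profile had a root mean square of 0.337, the closest were Loxl1, a lysyl oxidase-like enzyme of elastic fibers (0.089), Srpx2, a secreted sushi-repeat protein (0.091), and Prokr2, a prokineticin receptor (0.099). For Postn (0.211) they were Medag (0.058), the diacylglycerol kinase Dgkh (0.067) and the metalloprotease Adam19 (0.067). For Thbs4 (0.522) they were the muscle ubiquitin ligase Trim63 (0.130), Tacc2 (0.143) and the muscle LIM protein Csrp3 (0.158). Trim63 was 7.50 in preirradiated tumor 3 and 5.75 to 6.04 in all other tumors. This measure describes 8 tumors that differ in group and tissue content, and it favours genes that vary by a similar amount.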

How the data were processed

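Total RNA of 8 tumors was amplified, labelled with biotin and hybridised to 1 array each, per the labels' protocols. The authors deposited log2 values, 1 per probe set, from RMA (background correction, quantile normalization and a log2 summary), per the series' design text. They used affy in R 2.15.3, per the submitters' processing notes, with a chip description file that no source used here names. RMA makes the arrays alike, so a change in total RNA cannot be seen, and it understates changes near background.

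Of 34760 probe sets, the 34738 with a mean of at least 4 were fitted with lmFit and eBayes of limma 3.58.1 under R 4.3.3 (two-sided, both groups, no covariate), with Benjamini-Hochberg adjustment over all of them. The design text's filter was read as holding in either direction. Gene names came from the platform annotation; of the 21640 probe sets with 1 symbol, 0 symbols changed by Entrez ID against RefSeq (GRCm38.p6) and 87 IDs were not listed there. No coordinates are given for probe sets, whose build is not stated. Differences between 2 genes within tumors were tested by the exact permutation test over 70 assignments of tumors to groups (scipy 1.17.1). The fit was tested on simulated data.

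All 9 genes with a probe set are described. From each partner list the 2 genes of lowest unadjusted p and the 2 of largest difference are named, and for Tnc, Postn and Thbs4 the 3 genes most alike; Spp1, also in that rule and in 1 of 6 planned pairs, was not analysed here. The members, lists and tests were chosen with earlier results of these data known. Titles number the tumors 1 to 4 in each group; deviations of same-numbered tumors correlated at -0.289 to -0.075, so the numbers were not used as pairs. Alternatives covered the limit on low values, the variance model, scaling, array weights, a block, 1 probe set per gene, the muscle-rich tumors, a muscle covariate and each tumor in turn.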

Additional observations from a re-analysis of the deposited data

Results flagged for a closer look

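Among 72 sets of 4 tumors (36 genes or within-tumor differences in each group), 5 had 1 tumor far from the other 3 by Dixon's ratio; chance gives about 1 in 20 such sets. Thbs4 in preirradiated tumor 3 was 7.60, and Trim63, the gene most like it, was 7.50 in the same tumor. Trim63 was chosen for its likeness to Thbs4 over these same tumors, so its high value there is not a separate observation. Col5a2 in preirradiated tumor 2 was 7.73, low for its group and above all nonirradiated tumors. Adam19 in nonirradiated tumor 4 was 8.30, high for its group. The within-tumor difference Postn minus Sparc was -1.12 in preirradiated tumor 1, high for its group, and without that tumor the groups differed by 0.20. No explanation of these values was tested.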

How the results depend on the processing

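The number of the 9 matricellular genes past the study's filter was 3, 2 to 4 when 1 tumor was left out, 2 without both preirradiated tumors 1 and 3 or with the muscle covariate, and 5 with array weights, which added Tnxb and Thbs4. Tnxb also passed without preirradiated tumor 2, preirradiated tumor 4 or nonirradiated tumor 3. Of the named genes 97 passed (69 higher, 28 lower): 174 with array weights (150 higher, 24 lower), 60 with the muscle covariate, 58 without preirradiated tumors 1 and 3, 1129 with no limit on the log2 change, and 60 to 196 when 1 tumor was left out (60 without preirradiated tumor 1, 196 without preirradiated tumor 2, 188 without preirradiated tumor 4). Centring the arrays on their medians gave 51 higher and 36 lower and moved the median of all genes to -0.0377. The replicate block, whose numbers are not shown to pair the tumors, gave 87 genes and the same 3 matricellular genes, and no tumor correlated best with its own number (0 of 4). With limma 0 probe sets passed the adjusted p in any of these settings. Tnc, Tnn, Thbs2, Thbs3, Thbs4, Postn and Sparc kept their direction in all 18 settings, and Tnxb in the 17 that tested it. Thbs1 turned to 0.019 with a further quantile normalization, and ran from -0.071 to 0.068 when 1 tumor was left out: 0.041 without nonirradiated tumor 4, 0.0072 without preirradiated tumor 3 and 0.068 without preirradiated tumor 4. Itga8 ran from -0.53 to 0.053 when 1 tumor was left out, turning without nonirradiated tumor 1. With the muscle covariate Smoc2 turned to -0.014, Cacna2d1 to -0.0305, Trim63 to -0.14, Tacc2 to -0.073 and Csrp3 to -0.080, and Trim63 was -0.0255 without preirradiated tumors 1 and 3. The causes of these changes were not tested. No within-tumor difference between members changed sign when 1 tumor or both tumors 1 and 3 were left out; 7 tumors allow no exact p below 0.0571. No matricellular gene had a further probe set to average. With 4 arrays per group, changes of low-signal genes such as Tnn, Tnxb and Thbs4 are the least certain.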

Other observations

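Values of 3 genes outside the naming rule, chosen after their values were seen, are given here. Tlr4, a receptor that tenascin C can engage, was 8.58 ± 0.19 in nonirradiated and 8.27 ± 0.15 in preirradiated tumors (n = 4 each). Itgb1, the integrin subunit shared by many matrix receptors, was 11.02 ± 0.05 against 11.13 ± 0.04. The groups touched: tumor 4 of each group was at 11.08. Of all named genes 1.7% were higher without overlap. The matrix protein fibronectin (Fn1), which Itga5 and Itgb1 bind together, was 13.08 ± 0.07 against 13.10 ± 0.05. None of these passed the study's filter.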
